A study of Macaca mulatta with 252 samples.

Results

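The middle temporal area (MT) and V2 are visual areas of the monkey cortex, and layers 2 to 6 of each were compared here in adult rhesus macaques. The arrays were chosen by their titles, which name the area, the layer and the animal, and 40 of the 225 experimental arrays of the series qualified, 20 of MT and 20 of V2. The series measured RNA from single layers of 10 cortical areas and from parts of the hippocampus and thalamus on rhesus macaque gene arrays, with 1 array per piece of tissue. Each area and layer had 4 arrays, from 4 animals. Both areas were taken from 3 animals, the males 018G and CR5C1 and the female 99C018. MT was also taken from the female 99C039 and V2 from the female 98C096, each without the other area. The animals carried no treatment or genetic change in the labels, and area and layer are the factors compared. All levels below are normalized intensities on the log2 scale, where a difference of 1 is a 2-fold change, and all differences are MT minus V2. The term called is used for genes with an adjusted p under 0.05 and a difference of at least 1 in either direction.

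V2 receives most of its input from the primary visual cortex (V1) and passes it to many further areas. MT receives input from V2 and directly from V1, is known for neurons tuned to the direction and speed of moving stimuli, and is densely myelinated. In both areas layer 4 is the main target of input from lower areas, layers 2 and 3 send most of the output to other cortical areas, and layers 5 and 6 send output to the thalamus, midbrain and other deep structures. MET is the receptor tyrosine kinase for hepatocyte growth factor and takes part in the growth of axons, dendrites and synapses in the forebrain. LTB encodes lymphotoxin beta, a membrane-bound member of the tumour necrosis factor family known from lymphoid tissue. SYT17 is a synaptotagmin-like protein of the secretory pathway.

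The layer labels were checked against laminar genes. CUX2, a transcription factor of upper layer neurons, had mean levels of 10.1 and 9.70 in layers 2 and 3 of MT and of 9.87 and 9.70 in V2, against 4.15 and 3.49 in layer 6. RORB, a nuclear receptor of layer 4, had its highest mean in layer 4 of both areas, at 6.25 in MT and 6.44 in V2. SYT6, a layer 6 gene, had its highest mean in layer 6, at 7.39 in MT and 8.28 in V2. The arrays of the areas differed in the control RNAs. The poly-A control probe sets, which read RNAs added to each sample before amplification, ranged from 8.34 to 9.71 on the MT arrays and from 8.63 to 11.03 on the V2 arrays. In the 3 animals with both areas they were 0.77 to 0.90 higher in V2, averaged over layers. The hybridisation controls, added after amplification, had a mean of 11.8 in MT and 12.5 in V2. The 20 MT arrays correlated with the rest of their area and layer at 0.985 to 0.994, and the V2 arrays at 0.970 to 0.991. The lowest correlations were those of V2 layer 3 of 98C096 (0.971) and V2 layers 5 and 6 of CR5C1 (0.972 and 0.970). Results given without the low-correlation arrays leave out layers 5 and 6 of CR5C1. The array of 98C096 took no part in the main fits. The labels do not assign arrays to the amplification batches, so a batch term could not be fitted.

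Averaged over layers 2 to 6, neither MET, LTB nor SYT17 passed the test between MT and V2, although each had the same sign in the 3 animals with both areas. SYT17 had levels of 6.87, 8.03 and 8.29 in MT of 018G, CR5C1 and 99C018, and of 6.42, 7.15 and 7.23 in V2 of the same animals. It was higher in MT within each animal, but the groups overlapped, with 018G low in both areas. The difference was 0.80 ± 0.31 (SE, n = 3 animals, limma adjusted p = 0.0642). This and the other errors of differences are those of the limma fits, which draw on the spread of further areas or layers. MET had levels of 7.27, 7.19 and 8.28 in MT and of 6.35, 6.72 and 7.96 in V2 of the same animals. Female 99C018 was highest in both areas, and the spread between animals exceeded that between areas. The difference of MET was 0.57 ± 0.35 (SE, n = 3 animals, limma adjusted p = 0.232). Its direction turned with the level of the control RNAs as a covariate, to -0.56 with the poly-A and -0.98 with the hybridisation controls, neither of which passed. LTB had levels of 8.80, 8.48 and 8.51 in MT and of 8.94, 8.64 and 8.99 in V2. All LTB differences were below 0, with a mean of -0.26 ± 0.11 (SE, n = 3 animals, limma adjusted p = 0.0867). In the animals with only 1 of the areas, MT of 99C039 and V2 of 98C096 read 7.51 and 6.11 for SYT17, 7.74 and 7.75 for MET, and 9.04 and 9.66 for LTB. The unshared animals thus had the same direction for SYT17 and LTB, and almost the same level of MET.

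By layer, SYT17 and MET were called higher in MT in layer 4, and SYT17 also in layer 6. SYT17 in layer 4 read 6.31, 7.30, 7.35 and 6.31 in MT of 018G, CR5C1, 99C018 and 99C039, against 5.67, 5.69, 6.51 and 5.40 in V2 of 018G, CR5C1, 99C018 and 98C096. MT was above V2 in each shared animal, by 1.03 ± 0.28 (SE, n = 3 animals, limma adjusted p = 0.0112). In layer 6 the SYT17 levels were 6.52, 8.14, 8.53 and 7.75 in MT and 5.54, 7.20, 6.91 and 5.52 in V2, a difference of 1.18 ± 0.28 (limma adjusted p = 0.00827, n = 3 animals). Layer 5 gave a similar value, 1.15 ± 0.28, that did not pass (limma adjusted p = 0.0711, n = 3 animals), and layers 2 and 3 gave 0.30 and 0.34. With either control level as a covariate SYT17 was no longer called in layer 4 (0.78 with the poly-A and 0.80 with the hybridisation controls). MET in layer 4 read 7.41, 8.35, 9.33 and 8.55 in MT and 5.80, 7.42, 8.54 and 8.62 in V2. The V2 array of 98C096, an animal without MT, was at the level of MT, so the groups overlapped over all animals while the shared animals all had more MET in MT, by 1.11 ± 0.36 (SE, n = 3 animals, limma adjusted p = 0.0308). With the hybridisation control level as a covariate this difference was 1.18 and did not pass (limma adjusted p = 0.178). MET in layer 6 differed by 0.90 ± 0.36 and did not pass (limma adjusted p = 0.0904, n = 3 animals), and its differences in layers 2, 3 and 5 were 0.49, 0.18 and 0.17. LTB differed by -0.37, -0.38, -0.26, -0.40 and 0.11 in layers 2 to 6, none of which passed. The V2 array of 98C096 had the highest LTB level of all V2 arrays in layers 2 to 6 alike. Both MET and LTB had a laminar profile of their own in both areas, with MET highest in layer 3 and lowest in layer 6, and LTB highest in layer 6.

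**Figure D1:**
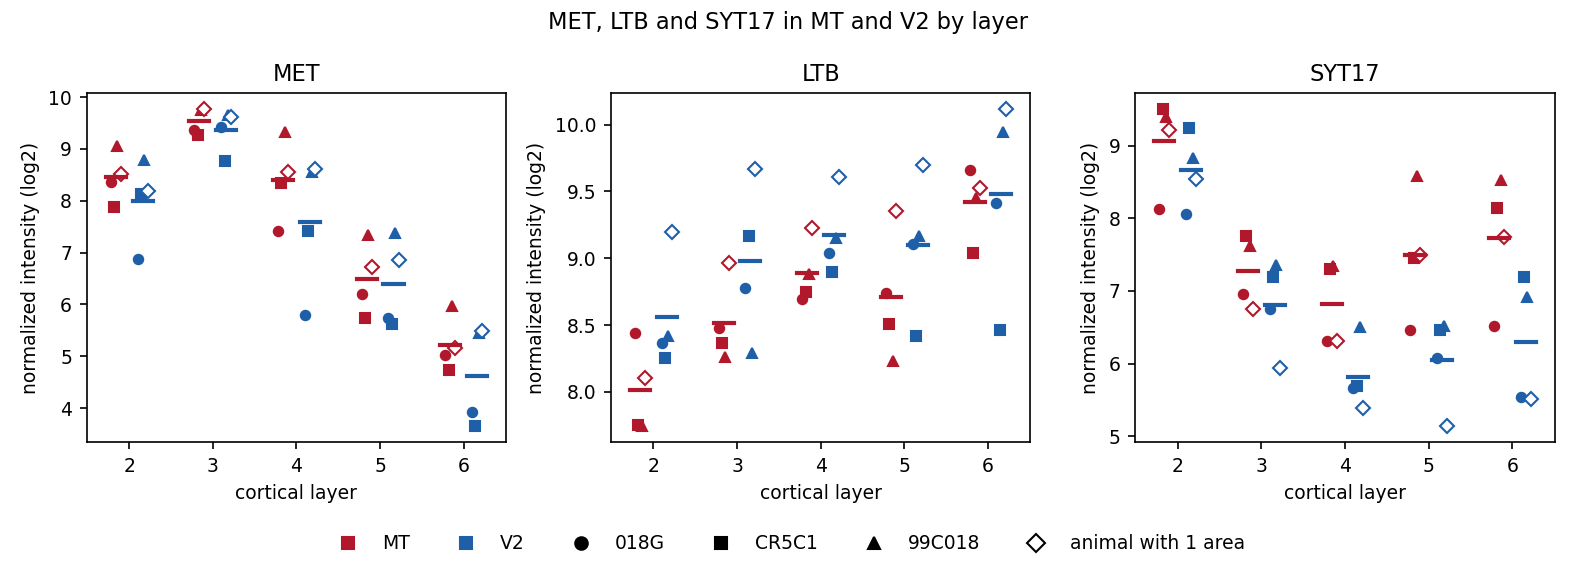
Normalized intensity (log2) of MET, LTB and SYT17 on each array, by layer, in MT (red) and V2 (blue). Symbols mark the animals, open diamonds the animals with 1 area, and lines the mean of the 4 arrays. SYT17 in layers 4 and 6 and MET in layer 4 were called in the shared animals, with differences of 1.03, 1.18 and 1.11.

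Among the 10 cortical areas of the series, over layers 2, 3, 5 and 6, MT and V2 stood next or near to each other for all these genes. MET ranked 2nd in MT, at 7.43 ± 0.48 (SD, n = 4), and 4th in V2, at 7.10 ± 0.68 (SD, n = 4). The temporal area TE was highest at 7.85 ± 0.55 (SD, n = 4), A1 lay between MT and V2, and the anterior cingulate gyrus was lowest at 3.88 ± 0.37 (SD, n = 4). The ranges of these highest 4 areas for MET overlapped, with animals at different levels in each area. Within animals TE was above MT in 3 of 3, by 0.19 to 0.36, above V2 in 4 of 4, by 0.40 to 1.03, and above A1 in 3 of 3, by 0.69 to 0.82. MT was above V2 in 3 of 3 animals, by 0.20 to 0.75, whereas A1 was above V2 in 1 of 3. LTB was highest in V2 at 9.03 ± 0.46 (SD, n = 4), followed by V1 at 8.88 ± 0.28 (SD, n = 4) and MT at 8.66 ± 0.29 (SD, n = 4), with overlapping ranges of neighbours. V2 was above V1 in 2 of 4 animals, and above MT in 3 of 3. SYT17 ran the other way, with the anterior cingulate gyrus highest at 10.3 ± 0.26 (SD, n = 4) and MT, V2 and V1 as the lowest areas in that order, at 7.89 ± 0.65, 6.95 ± 0.60 and 5.95 ± 0.43 (SD, n = 4 each). The ranges of MT and V2 overlapped for SYT17, and so did those of V2 and V1, although MT was above V2 in 3 of 3 animals and V2 above V1 in 4 of 4.

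**Figure D2:**
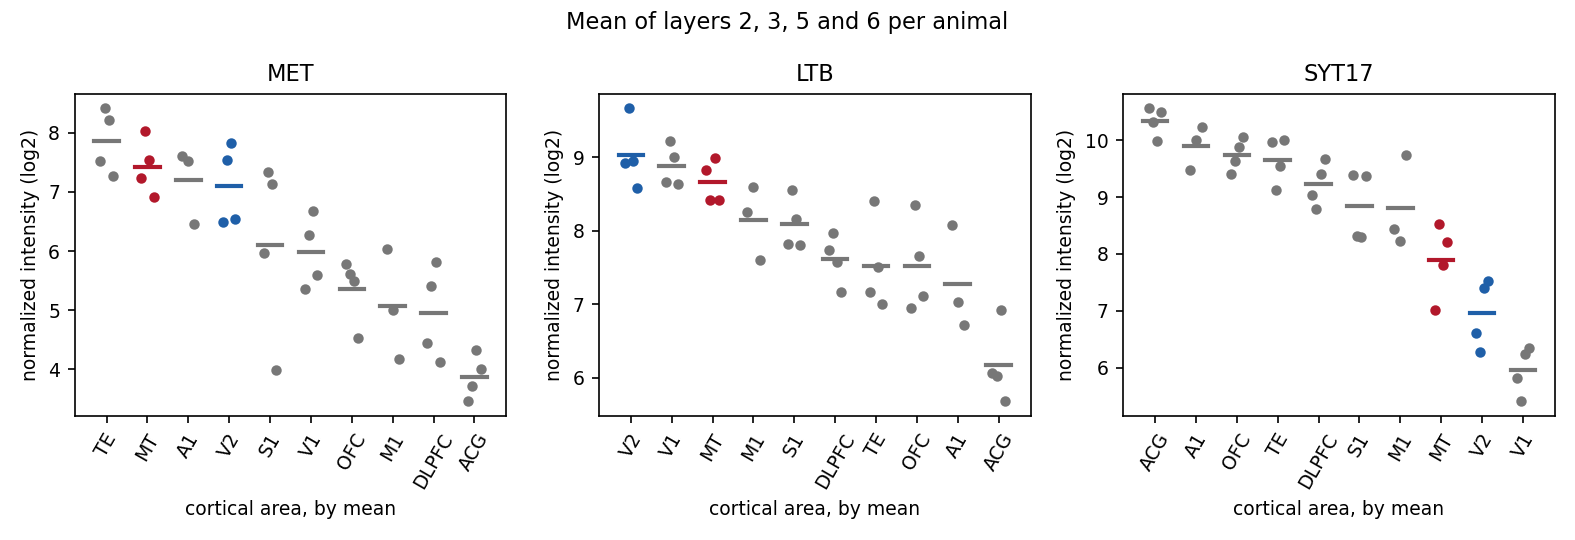
Normalized intensity (log2) of MET, LTB and SYT17 averaged over layers 2, 3, 5 and 6, by cortical area in order of the mean. Points are animals (3 or 4 per area), lines are means, MT is red and V2 is blue. SYT17 had MT, V2 and V1 as its lowest areas, at 7.89, 6.95 and 5.95.

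Across all genes, 37 of 10281 tested genes were called in the mean of layers (0.36%), all 37 higher in MT, and none was called lower. No tested gene was 2-fold lower in MT whatever its p, while 1336 had an unadjusted p under 0.05 on that side. By adjusted p alone 2406 genes were higher (23.4%) and 773 lower (7.52%), and under quantile normalization these became 1777 higher and 1832 lower. The median difference over all genes was 0.034. The largest difference was that of PROM1, which encodes prominin-1, a protein of membrane protrusions. PROM1 read 7.28, 7.31, 7.78 and 7.21 in MT of 018G, CR5C1, 99C018 and 99C039 and 6.07, 5.79, 6.48 and 6.21 in V2 of 018G, CR5C1, 99C018 and 98C096. All MT levels lay above all V2 levels, and the difference was 1.35 ± 0.13 (SE, n = 3 animals, limma adjusted p = 5.75e-05). ARHGAP6 read 6.16, 6.07, 6.18 and 6.07 in MT and 5.05, 4.55, 4.84 and 4.80 in V2. Its MT levels were nearly the same in all animals, and the difference was 1.32 ± 0.12 (SE, n = 3 animals, limma adjusted p = 3.95e-05). A dimmer probe set of ARHGAP6, just under the level for testing, had a difference of -0.16. AQP1, a water channel, read 7.57, 7.65, 7.31 and 7.03 in MT and 6.53, 5.95, 6.21 and 5.74 in V2. Its groups did not overlap, with a difference of 1.28 ± 0.18 (limma adjusted p = 2.65e-04, n = 3 animals). WWTR1, the Hippo pathway coactivator TAZ, read 6.92, 6.97, 7.58 and 6.73 in MT and 5.49, 5.84, 6.46 and 6.17 in V2. WWTR1 was again higher in MT of every animal, by 1.23 ± 0.18 (limma adjusted p = 3.05e-04, n = 3 animals).

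The other genes of the 10 largest differences were SYCP3, DSEL, LXN, PPEF1, PASK and PLEKHF2. SYCP3, best known from the synaptonemal complex of meiosis, differed by 1.29 ± 0.18, with 018G at 6.43 in MT and 4.35 in V2 and the other shared animals closer together. DSEL, related to dermatan sulfate epimerase, differed by 1.24 ± 0.16, and LXN, the carboxypeptidase inhibitor latexin, by 1.23 ± 0.11. The other, dimmer probe sets of LXN had smaller differences, of 0.27 to 0.53. PPEF1, a protein phosphatase with calcium-binding EF-hands, differed by 1.22 ± 0.20, and PASK, a kinase with a PAS domain, by 1.21 ± 0.16. PLEKHF2, an endosomal protein that binds phosphoinositides, differed by 1.19 ± 0.12. ADAMTS3, a protease that processes procollagen, read 6.46, 7.45, 6.96 and 7.49 in MT and 5.81, 6.06, 5.61 and 5.78 in V2, a difference of 1.13 ± 0.13 (limma adjusted p = 1.28e-04, n = 3 animals). ROBO1, a receptor of the axon guidance ligands of the Slit family, read 7.77, 8.22, 8.20 and 8.05 in MT and 6.99, 6.70, 7.22 and 7.21 in V2, a difference of 1.10 ± 0.14 (limma adjusted p = 1.69e-04, n = 3 animals). Neither ADAMTS3 nor ROBO1 overlapped between MT and V2. Further called genes, chosen for naming after their values were seen, were HSPA4L, a chaperone of the Hsp110 family, at 1.14 ± 0.15, DCN, the matrix proteoglycan decorin, at 1.09 ± 0.13, and INHBA, a subunit of activin, at 1.01 ± 0.19.

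**Figure D3:**
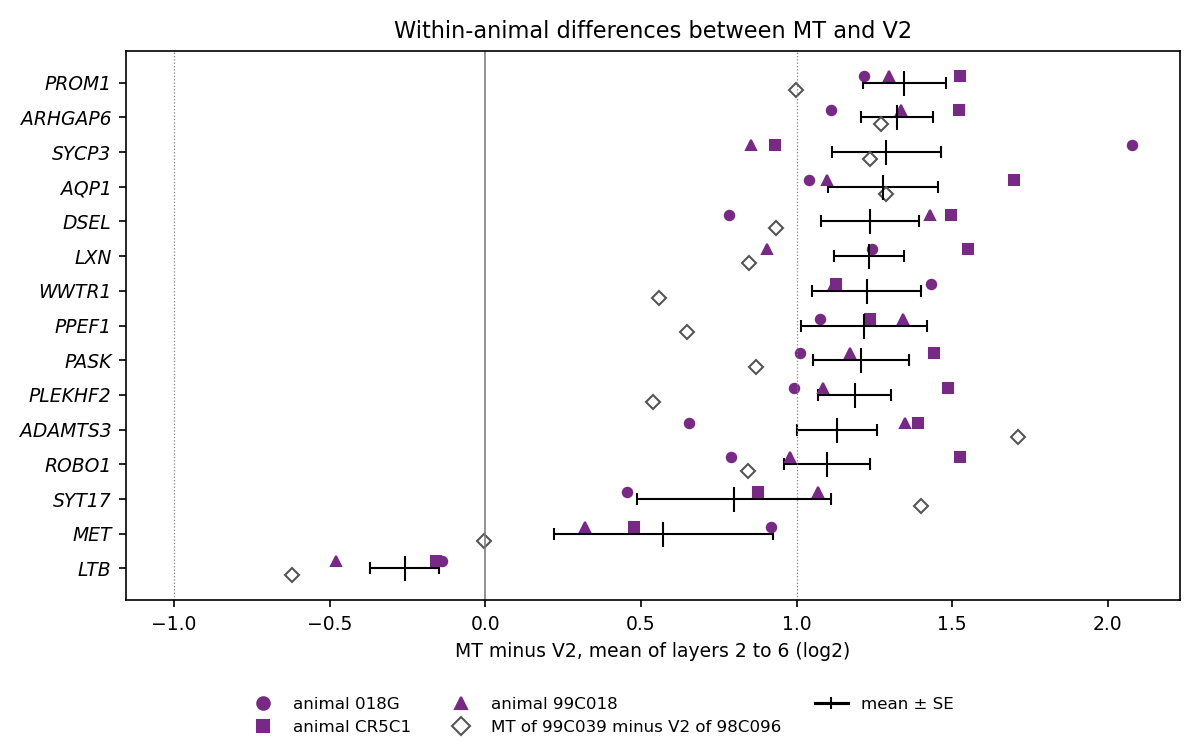
Difference between MT and V2 (log2, mean of layers 2 to 6) for the 10 genes with the largest differences, ADAMTS3, ROBO1 and the marker genes. Filled symbols are the 3 animals with both areas, open diamonds MT of 99C039 minus V2 of 98C096, and dotted lines a 2-fold change. Bars are the mean of the 3 animals ± the SE of the limma fit. Its spread is estimated over MT, V2, DLPFC, S1, A1 and TE, so the SE is not that of the points shown. PROM1 was highest at 1.35, while SYT17, MET and LTB had means of 0.80, 0.57 and -0.26 with wider errors relative to their size.

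All 37 called genes had the same sign in the 3 shared animals, as had 6487 of all 10281 tested genes. The call rests on the mean of these same differences, which favours 1 sign. Of the 37 genes, 36 did not overlap between the 4 MT and the 4 V2 animals. Over all tested genes 2032 were higher in MT without overlap (19.8%) and 919 lower (8.94%). The unshared animals took no part in the fit, and MT of 99C039 minus V2 of 98C096 was positive for 36 of the 37 genes (97.3%), with a median of 0.844, and at least 2-fold for 9. The fitted direction was seen there in 75.4% of all tested genes. The exception was LOC722935, at -0.28. The control RNAs differed in this pair as well. Their poly-A levels were 8.41 to 9.03 on the MT arrays of 99C039 and 9.42 to 11.03 on the V2 arrays of 98C096. The hybridisation controls were 11.31 to 11.92 and 12.23 to 13.04 on the same arrays. Area, animal and control level cannot be told apart in this pair. A further set of 3 control arrays held MT tissue of CR5C1, and all 37 genes were higher on them than in V2 of CR5C1, against 62.3% of all tested genes. These arrays come from an animal that is in the fit, so they repeat its tissue and do not add an animal. The 37 genes were called with the same V2 arrays of CR5C1, so this outcome was largely set by their selection. Set against the other areas of the series over layers 2, 3, 5 and 6, 34 of the 37 genes had their lowest mean in V2 (19 genes) or V1 (15 genes), and in 26 genes V1 and V2 were the lowest pair. The genes were chosen for a V2 level below that of MT, which favours a low rank of V2. Of the 3891 tested genes higher in MT in all 3 shared animals, 72.9% had their lowest mean in V1 or V2 and 43.7% had V1 and V2 as the lowest pair, and of all tested genes 42.1% and 19.9%. MT was the highest area for 5 of them, INHBA, NEDD9, SLC66A1, SYCP3 and ZC3H12C, which were named after their values were seen.

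The control RNAs moved with this result, since their levels were higher in V2 in all 3 animals. With the poly-A level as a covariate no gene was called and 1310 had an unadjusted p under 0.05, while the median difference of the 37 genes was 0.926 in place of 1.10 (both limma, n = 3 animals). With a covariate for the hybridisation controls, added after the data were seen, again no gene was called, 549 had an unadjusted p under 0.05 in limma, and the median difference of the 37 genes was 0.724. Since V2 exceeded MT in control level in every shared animal, area and control level cannot be fully told apart in these arrays.

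Of the gene lists for pathways and cell types, axon guidance had 1 called member of 31 tested, ROBO1, against 0.36% of all genes. A list of area genes known from earlier results had 2 of 14, ADAMTS3 and ROBO1. The lists were chosen with earlier results of these data known, so nothing is read from these counts. The other lists had no called member in the mean of layers, so their members are given by adjusted p alone, where 30.9% of all genes passed. Cadherins and protocadherins, adhesion molecules that bind their own kind on neighbouring cells, had 8 of 15 members higher and none lower, with a list median of 0.306. PCDH20 was at 0.90 ± 0.10 and CDH11 at 0.70 ± 0.09, although 1 other probe set of CDH11 had a difference near 0 on the negative side. Of the axon guidance genes 6 were higher and 3 lower, with a median of 0.037. SEMA3C, a secreted semaphorin, was at 0.88 ± 0.13, the ephrin receptor EPHA5 at 0.69 ± 0.10 and NTN4, a netrin, at 0.69 ± 0.11. PLXND1, a semaphorin receptor, was lower, at -0.29 ± 0.09. Of 16 synaptotagmins 7 were tested, and SYT16 rose by 0.48 ± 0.09 beside SYT17, whose value did not pass. Of the MET pathway, 8 of 13 genes were tested and 2 were higher, the matriptase ST14 at 0.37 ± 0.13 and the phosphatase PTPN11 at 0.34 ± 0.07. For ST14 the other probe sets had the opposite sign. Of the lymphotoxin and tumour necrosis factor pathway, 8 of 13 were tested, with the adaptor TRAF3 higher at 0.41 ± 0.09 and the NF-kappa-B subunit RELB lower at -0.21 ± 0.07.

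HTR7, a serotonin receptor, was at 0.74 ± 0.13 and HTR2A at -0.38 ± 0.12, the members that passed among 9 tested serotonin and muscarinic receptors. Another probe set of HTR7 pointed the other way. The glutamate receptor subunits GRIA4 and GRIK1 were at 0.62 ± 0.10 and 0.48 ± 0.12, of 5 tested with a list median of 0.39. The GABA-A subunits GABRA4 and GABRE were at 0.52 ± 0.14 and 0.31 ± 0.08, of 5 tested with a median of 0.24. The lists were not tested against each other. Among 29 potassium channel genes 3 were higher and 2 lower, with a median of -0.050. Of 14 activity-regulated genes 5 were higher and 3 lower. BDNF, a neurotrophin, was at 0.88 ± 0.13 and HOMER1, a postsynaptic scaffold, at 0.54 ± 0.11, while ARC, an immediate early gene of dendrites, was at -0.47 ± 0.16. Perineuronal net genes, which code for the matrix around fast-spiking neurons, had no member of 5 that passed, with values from -0.088 to 0.108, and none of 4 fast-spiking channel genes passed. Other probe sets ranged wider, at 0.34 and 0.50 for HAPLN1 and at -0.28 and 0.041 for ACAN. In layer 6 alone 2 of the 5 perineuronal net genes were higher and 1 lower by adjusted p, against 1559 of all 10327 genes. Their layer 6 values ran from -0.55 to 0.74. Respiratory chain genes had 5 of 24 members higher and none lower, led by COX7B at 0.68 ± 0.10.

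Cell type markers give the background for these values. In pieces of tissue, fewer cells of a type and less RNA per cell cannot be told apart. Summed over each marker list and averaged over layers, the 4 animals of each area gave levels of 12.6 to 12.8 in MT against 12.2 to 12.4 in V2 for inhibitory neurons, and of 13.3 to 13.6 against 12.9 to 13.1 for upper layer neurons. For layer 6 neurons they were 10.8 to 10.9 in MT against 10.42 to 10.55 in V2. The ranges did not overlap for these 3 of the 12 lists, while 28.7% of all tested genes did not overlap between the areas. The ranges overlapped for excitatory neurons, oligodendrocytes, oligodendrocyte precursors, astrocytes, microglia, endothelium, layer 4 neurons, layer 5 neurons and blood cells, and the differences of their means ran from -0.14 for blood to 0.21 for layer 5 neurons. Of the 5 blood markers on the array MS4A1, LYZ and S100A8 were too dim to test. Of the inhibitory markers 3 of 7 were higher by adjusted p, NPY at 0.95 ± 0.21, VIP at 0.56 ± 0.13 and GAD1 at 0.34 ± 0.09, and ADARB2 was lower at -0.27 ± 0.09. Of the upper layer markers 6 of 11 were higher, among them CARTPT at 0.65 ± 0.20 and WFS1 at 0.61 ± 0.12, for which another probe set had the opposite sign. Of the layer 6 markers 2 of 8 were higher, CCN2 at 0.90 ± 0.12 and NR4A2 at 0.46 ± 0.08, with a list median of 0.22. The sums add intensities before the log, so bright genes weigh most. NR4A2 alone had means of 10.31 in MT and 9.85 in V2 of the shared animals, against layer 6 sums of 10.88 and 10.47. Of the excitatory markers NRGN, a calmodulin-binding postsynaptic protein, and EMX1 were lower, at -0.52 ± 0.11 and -0.39 ± 0.08, and TBR1 was higher at 0.43 ± 0.09. Of the oligodendrocyte markers 3 of 5 were higher, UGT8, which makes the galactolipids of myelin, at 0.93 ± 0.14, ANLN at 0.82 ± 0.14 and ASPA at 0.44 ± 0.12. The areas overlapped for UGT8, with 8.39 in MT of 99C039 and 8.64 in V2 of 98C096, but not for ANLN. P2RY12, a receptor of microglia, was at 0.98 ± 0.20, the member that passed of 9 microglial genes. Its areas overlapped between animals, with 7.21 in MT of 018G and 7.59 in V2 of 99C018. The part of these markers in the called genes was not tested.

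Fitted layer by layer, the count of called genes differed widely between layers. Layer 4 had 565 of 10327 (5.47%), 541 of them higher in MT (5.24%) and 24 lower (0.232%). Layer 6 had 258 (2.5%), 256 of them higher (2.48%) and 2 lower (0.0194%). Layer 2 had 35 (0.339%), 34 higher (0.329%) and 1 lower (0.00968%). Layer 5 had 22 (0.213%), 21 higher (0.203%) and 1 lower (0.00968%), and layer 3 had 1, which was higher (0.00968%). The median difference of all genes ran from -0.035 in layer 3 to 0.096 in layer 2, and quantile normalization moved it by over 0.1 in layer 2, from 0.096 to -0.037, and in layer 6, from 0.089 to -0.031. Of the 37 genes called in the mean of layers, 35 were called in layer 4, 26 in layer 6, 11 in layer 2, 4 in layer 5 and 0 in layer 3. These fits share arrays with the mean, so the overlap describes which layers carry it. Layers 4 and 6 shared 136 called genes, 24.1% of those of layer 4 and 52.7% of those of layer 6. Without layers 4 and 6 the mean of layers called 8 genes, which was computed after the layer counts were known. The 37 genes then had a median difference of 0.889 in place of 1.10, below the 2-fold threshold, and 965 genes were still higher in MT by adjusted p alone. The poly-A controls were higher in V2 by 0.67, 0.48, 1.33, 1.12 and 0.62 in layers 2 to 6, and the hybridisation controls by 0.40, 0.40, 1.198, 0.52 and 0.44. Layer 4 thus had both the most called genes and the largest mean differences in both controls. Its poly-A difference was small in 018G, where V2 and MT read 8.96 and 8.82. They read 10.94 and 8.66 in CR5C1 and 10.52 and 8.96 in 99C018. Layer 6 had many called genes and mean control differences near those of layer 2, but in both layers the poly-A difference changed sign between animals. In layer 2 the poly-A levels of V2 and MT were 10.19 and 8.34 in 018G. They were 9.68 and 9.28 in CR5C1 and 9.01 and 9.24 in 99C018. In layer 6 the poly-A levels of V2 and MT were 10.28 and 8.72 in 018G and 10.32 and 8.92 in 99C018. They were 8.63 and 9.71 in CR5C1, so the means of layers 2 and 6 do not describe the single animals.

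**Figure D4:**
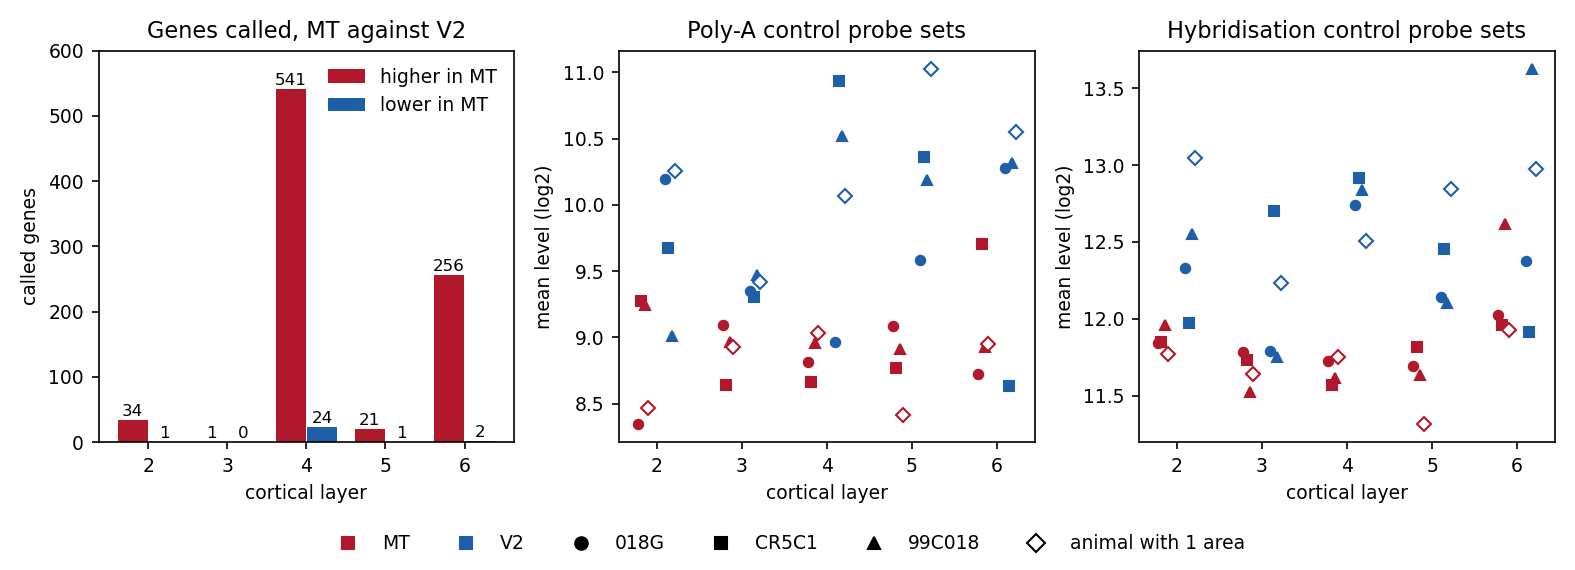
Left, genes called higher (red) and lower (blue) in MT in each layer. Middle and right, the mean level (log2) of the poly-A and hybridisation control probe sets on each array, MT in red and V2 in blue, with symbols for animals. Layer 4 had 541 genes higher and 24 lower, and its control levels differed by 1.33 and 1.198 between the areas.

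In layer 4, PHLDB2, a protein that anchors microtubules at the cell cortex, had the largest difference. It read 7.92, 8.44, 7.52 and 7.82 in MT of 018G, CR5C1, 99C018 and 99C039 and 5.88, 5.21, 4.35 and 5.54 in V2 of 018G, CR5C1, 99C018 and 98C096. The groups lay far apart, with a difference of 2.82 ± 0.38 (SE, n = 3 animals, limma adjusted p = 9.60e-05). DSEL read 7.42, 7.87, 7.46 and 7.46 in MT and 6.91, 4.20, 4.61 and 5.18 in V2, a difference of 2.35 ± 0.41 (limma adjusted p = 4.88e-04, n = 3 animals). Animal 018G had a much smaller DSEL difference than the others. NPY, a peptide of inhibitory neurons, read 7.42, 8.75, 9.88 and 7.92 in MT and 6.40, 6.02, 6.77 and 6.06 in V2. NPY was higher in MT in all animals, by 2.29 ± 0.57 (limma adjusted p = 0.00635, n = 3 animals), and its differences in layers 2 and 6 were 0.21 and 0.086. The genes with the largest decreases were FBXO11, a ubiquitin ligase subunit, SMCO4, and the kinase RIOK1. FBXO11 read 4.83, 4.98, 4.81 and 5.19 in MT and 6.97, 6.46, 6.37 and 5.02 in V2, and the shared animals differed by -1.73 ± 0.30 while V2 of 98C096 was at the MT level. SMCO4 differed by -1.496 ± 0.28 and RIOK1 by -1.41 ± 0.38.

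Of 247 list genes tested in layer 4, 24 were called (9.72%, against 5.47% of all genes), of which 23 were higher and CUX2 was lower. Of all called genes in this layer 541 of 565 were higher. Some lists were chosen with earlier results of these data known, so nothing is read from their share. The genes are named here after their values were seen. CUX2 read 6.73, 5.69, 5.45 and 4.78 in MT and 7.04, 7.48, 7.34 and 6.56 in V2, a difference of -1.33 ± 0.37 (limma adjusted p = 0.0123, n = 3 animals). In the layers above, the CUX2 differences were 0.29 and -0.061. Of 6 tested layer 5 markers and 8 tested layer 6 markers, 2 and 1 were called higher in layer 4 of MT, and none lower. They were ETV1 and RSPO3 of the layer 5 list, at 1.55 ± 0.27 and 1.65 ± 0.28, and CCN2 of the layer 6 list, at 1.30 ± 0.33. The list medians were 0.71 for layer 5 and -0.039 for layer 6. Of 11 tested upper layer markers 1 was called higher, CARTPT, and 1 lower, CUX2, with a list median of 0.175. FEZF2, another gene of deep layers, had mean levels of 8.12 and 7.67 in layer 4 of MT and V2, and neither RORB nor any other tested layer 4 marker was called. Whether the depth of the layer 4 pieces differed between areas was not tested. Among peptides, GRP was at 2.13 ± 0.35 and CARTPT at 1.92 ± 0.47. GRP read 5.66, 7.45, 7.61 and 6.28 in MT and 5.13, 4.08, 5.13 and 5.48 in V2, so that 018G again had the smallest difference. Of 32 axon guidance genes 5 were called, all higher, SEMA3C at 1.71 ± 0.38, the ephrin receptors EPHA3 and EPHA5 at 1.42 ± 0.29 and 1.21 ± 0.23, ROBO1 at 1.32 ± 0.31 and NTN4 at 1.11 ± 0.26. The list's median was -0.003. Of 15 cadherins CDH11 and CDH9 were called, at 1.44 ± 0.21 and 1.18 ± 0.23. Of 9 tested microglial genes P2RY12 was called, at 1.61 ± 0.33, while the list's median was -0.056 and its lowest value that of CD53, at -0.35. Of 5 oligodendrocyte genes UGT8 and ANLN were called, at 1.53 ± 0.29 and 1.26 ± 0.38, with a list median of 0.86. HTR7 was at 1.38 ± 0.34, and COX7B, a subunit of cytochrome c oxidase, at 1.01 ± 0.31. The calls of layer 4 fell to 249 with the poly-A covariate and to 351 without CR5C1.

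**Figure D5:**
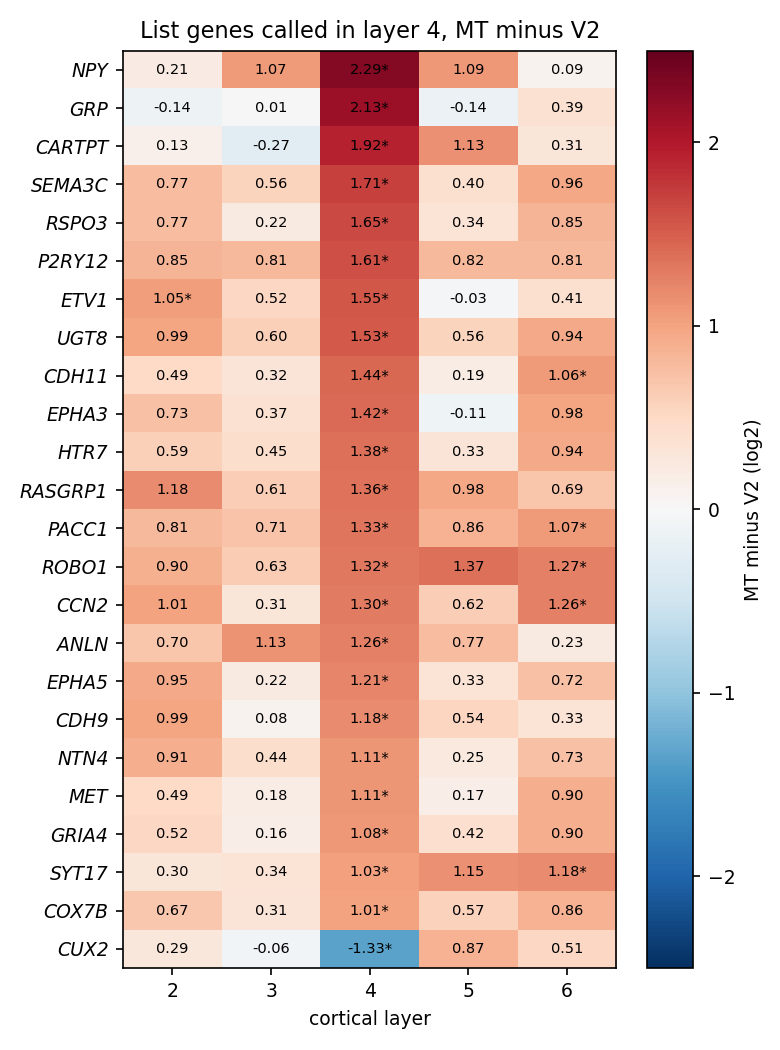
Difference between MT and V2 (log2, colour and number) in layers 2 to 6 for the 24 list genes called in layer 4, in order of the layer 4 difference. Asterisks mark calls. NPY had 2.29 in layer 4, and CUX2 was the gene called lower, at -1.33.

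In layer 6, PPEF1 had the largest difference. It read 6.30, 6.93, 7.36 and 6.66 in MT and 4.59, 4.28, 5.57 and 5.44 in V2. MT exceeded V2 in each animal, by 2.05 ± 0.30 (SE, n = 3 animals, limma adjusted p = 6.86e-04). HSPA4L followed at 1.83 ± 0.25, and ZNG1, a zinc chaperone, at 1.76 ± 0.33. HSPA4L read 5.69, 5.94, 5.05 and 5.72 in MT and 3.98, 3.78, 3.43 and 5.07 in V2, where the unshared animal 98C096 lay above MT of 99C018. The genes called lower in layer 6 were BHLHE41, a circadian repressor, and REPS2, an endocytic adaptor, at -1.70 ± 0.51 and -1.01 ± 0.22. Of the list members, GABRA4 was at 1.57 ± 0.41, PCDH20 at 1.39 ± 0.31, ROBO1 at 1.27 ± 0.31, CCN2 at 1.26 ± 0.33, HOMER1 at 1.09 ± 0.17, PACC1, a proton-activated chloride channel, at 1.07 ± 0.27 and CDH11 at 1.06 ± 0.21. GABRA4 rested on the shared animals, since V2 of 98C096 read 8.77 against 8.43 in MT of 99C039, and within 018G the difference was 0.29. The V2 array of CR5C1 in this layer was among the low-correlation arrays and had a poly-A level of 8.63, against 10.3 to 10.6 in the other V2 arrays. The layer 6 count was 94 without 99C018 and 405 without 018G, and 203 without the low-correlation arrays.

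In layer 2, ADAMTS3, SLC10A7 and ARHGAP6 had the largest differences, and CD53, a tetraspanin of leukocytes and microglia, was the gene called lower. ADAMTS3 read 7.36, 8.39, 7.69 and 8.82 in MT and 5.49, 7.13, 5.43 and 5.79 in V2, a difference of 1.80 ± 0.38 (SE, n = 3 animals, limma adjusted p = 0.0388). CR5C1 was high in both areas, but all MT levels lay above all V2 levels. SLC10A7, a membrane transporter family member, differed by 1.60 ± 0.36 and ARHGAP6 by 1.54 ± 0.25. CD53 read 5.96, 5.93, 6.45 and 5.35 in MT and 7.38, 7.28, 7.78 and 7.29 in V2, a difference of -1.36 ± 0.30 (limma adjusted p = 0.0388, n = 3 animals) with no overlap. P2RY12 did not pass in this layer, at 0.85 (limma adjusted p = 0.135, n = 3 animals), with 1.87 in 018G, -0.084 in CR5C1 and 0.75 in 99C018. PCDH20 and ETV1 were called at 1.30 ± 0.31 and 1.05 ± 0.27. The layer 2 count depended on the animals, with 0 genes without 018G, where 892 had an unadjusted p under 0.05, 1 without 99C018 and 320 without CR5C1. It was also 3 under quantile normalization.

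In layer 5, BDNF had the largest difference. It read 8.01, 7.99, 8.14 and 7.95 in MT and 6.56, 5.85, 6.65 and 6.95 in V2. The MT levels were nearly equal and all above V2, by 1.69 ± 0.19 (SE, n = 3 animals, limma adjusted p = 1.99e-05). FZD7, a Wnt receptor, differed by 1.61 ± 0.32, TNFSF13B, the B cell activating factor of the tumour necrosis factor family, by 1.57 ± 0.28, and the small GTPase RAB17 by -1.51 ± 0.28. In the mean of layers, another probe set of similar level gave less, 0.26 against 0.76 for FZD7 and 0.099 against 0.63 for TNFSF13B. RAB17 ranged from 4.41 to 6.25 in MT and from 6.63 to 7.81 in V2, without overlap. GBP1, an interferon-induced GTPase, was at 1.33 ± 0.26. The 22 calls fell to 3 without CR5C1, whose V2 layer 5 array was among the low-correlation arrays, and to 3 without 99C018.

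In layer 3 the called gene was NEUROD6, a transcription factor of excitatory neurons. NEUROD6 read 4.65, 6.10, 6.25 and 5.88 in MT and 3.71, 4.57, 3.36 and 5.23 in V2. The shared animals differed by 1.79 ± 0.30 (limma adjusted p = 0.0358, n = 3 animals), and V2 of 98C096, a low-correlation array, lay above MT of 018G. No gene was called lower, while 513 had an unadjusted p under 0.05 on that side. Layer 3 had 12 calls without 018G and 0 without either of the other shared animals.

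Whether the difference between MT and V2 itself depends on layer was tested within the 6 pieces of animal and area. The moderated F test called 0 of 10327 genes (0%), and 0 passed by adjusted p alone, while 1205 had an unadjusted p under 0.05 (11.7%). The smallest p values were those of KLHL1, EMILIN3 and PJA2, with a limma adjusted p of 0.0777 for each. KLHL1 belongs to the kelch family of actin-binding proteins and its layer differences spanned 2.70, EMILIN3 is a matrix glycoprotein with a span of 1.68, and PJA2, a ubiquitin ligase, had a span of 1.83. For SYT17 and MET the spans were 0.88 and 0.93, with adjusted p values of 0.446 and 0.686 in the limma F test. The calls of these genes in layers 4 and 6 were therefore not shown to differ from their values in the other layers. Without 018G the test called 35 genes.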

How the data were processed

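The values are log10 normalized intensities as deposited; per the file headers, the authors used Matlab 2007b, computed RMA within each batch and then normalized each probe on the common whole brain controls across batches. They were multiplied by 3.32 (log2 of 10) to reach the log2 scale; the plan had assumed deposited log2 values, and the tests were kept. Symbols came from the platform annotation given with the data: of 52865 probe sets 24969 had 1 symbol, 361 several and 27535 none, and 24629 matched the macaque RefSeq list, which changed 0 symbols. A gene was represented by its brightest probe set (14133 genes) and tested when its mean exceeded the median of all probe sets, 4.76. No file gives background or depth, so the number of arrays limits the precision. Probe sets without a symbol are not named; of 10309 tested, 42 were higher and 11 lower in MT.

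Linear models came from limma 3.58.1 under R 4.3.3 (files read by fread, version 1.17.8), with animal as a fixed block and Benjamini-Hochberg adjustment over all genes tested. The mean-of-layers fit used 1 mean per animal and area in the 3 shared animals, and DLPFC, S1, A1 and TE of the same animals entered to share the estimate of spread. The layer fits used the 30 arrays of the shared animals. Errors written ± are standard errors of these fits unless SD is given. They draw on the spread of all areas or layers in the fit, and not only on the 3 animal differences. The pairing comes from the animal codes in the labels. After removal of group means, MT and V2 arrays of 1 animal correlated with a median r of 0.211, and those of different animals with -0.0609. No pair of arrays was identical (highest correlation 0.993). The scripts were tested on simulated data.

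Genes were named by rule: the 10 largest called changes each way in the mean of layers with 1 sign in all animals and no LOC symbol, the 3 largest each way per layer, up to 4 called members of each list or else the 2 largest values, the 3 smallest p values across layers, and MET, LTB and SYT17. The members and the lists were chosen with earlier results of these data known. The alternatives covered the block, control levels, normalization, filter, probe set rule, thresholds, animals and layers.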

Additional observations from a re-analysis of the deposited data

Results flagged for a closer look

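In 4 of 76 groups of 4 samples (5.26%) 1 sample stood far from the others by Dixon's criterion, and chance gives about 1 in 20. PASK in V2, averaged over layers, was 5.35 in CR5C1 against 5.57 to 5.59 in the other animals. LTB in layer 2 of V2 was 9.20 in 98C096 against 8.26 to 8.42. The hybridisation controls in layer 6 of MT were 12.6 in 99C018 against 11.92 to 12.02. The poly-A controls in layer 6 of V2 were 8.63 in CR5C1 against 10.3 to 10.6.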

How the results depend on the processing

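In the mean of layers, the count of 37 became 0 with the poly-A level and 0 with the hybridisation control level as a covariate (549 genes with an unadjusted p under 0.05 in the second, 1310 in the first), 23 under the stricter filter, 17 with the mean of all probe sets, 17 with layers 2, 3, 5 and 6 in 10 areas, 8 without layers 4 and 6, 99, 17 and 56 without layers 3, 4 and 5, 3179 by adjusted p alone and 655 at 1.5-fold. It was 29 with no animal block and 32 with a random block over 4 animals per area, and 42 to 56 without 1 animal. Every called gene was higher in MT under these settings, except 1 gene lower without 018G and 2 without CR5C1, and those lower at the looser thresholds (773 and 11). Of the 37, ADAMTS3, AQP1, PROM1 and WWTR1 were called in 19 of 22 settings.

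In layer 2 the count of 35 was 156 with no block, 163 with a random block, 1 and 0 with the poly-A and hybridisation levels, 3 under quantile normalization, 10 with no filter, 10 with the mean of probe sets, 23 without the low-correlation arrays, 137 by adjusted p alone and 130 at 1.5-fold, and 0 to 320 without 1 animal. In layer 3 the count of 1 was 3 with a random block and 0 with the poly-A level, quantile normalization and no filter, and 0 to 12 without 1 animal. It was also 0 without layers 5 and 6 of CR5C1, which share the estimate of spread. No layer 3 array was left out in that setting. In layer 4 the count of 565 was 249 and 233 with the control levels, 284 with the mean of probe sets, 2166 and 1600 at the looser thresholds, and 351 to 666 without 1 animal. In layer 5 the count of 22 was 11 with no block, 13 with a random block, 3 and 7 with the control levels, 7 under the stricter filter, 11 with the mean of probe sets, 3 without the low-correlation arrays, 35 and 34 at the looser thresholds, and 3 to 18 without 1 animal. In layer 6 the count of 258 was 117 with no block, 129 with a random block, 167 under quantile normalization, 130 with the mean of probe sets, 1559 and 1126 at the looser thresholds, and 94 to 405 without 1 animal. The test across layers called 4 genes under the stricter filter and 0 to 35 without 1 animal.

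Of the values of single genes, 1697 kept direction and side of the threshold, 85 passed it newly, 298 no longer passed and 33 changed sign. With the hybridisation level these were SLC10A7 (-0.30), PHLDB2 (-0.13), SMCO4 (0.11), PJA2 (-0.29), MET (-0.98), KCNC1 (0.017), HAPLN1 (-0.47), ACAN (0.54), CSPG4 (0.22), CD79A (0.51) and LTB in layer 4 (0.48). With the poly-A level they were PJA2 (-0.021), MET (-0.56), GAD2 (-0.47), HAPLN1 (-0.28), ACAN (0.066) and CD79A (0.13). CD53 was 0.017 without layer 2, ACAN 0.029 without layer 6, and KLHL1, PJA2 and HBB were -0.16, -0.12 and 0.0080 without layers 4 and 6. HBB was 0.095 without layer 4 and over 10 areas, and -0.42 to 0.158 without 1 animal (0.0945 without 99C018). HAPLN1 was -0.028 without the low-correlation arrays and ST14 -0.027 with the mean of probe sets. LTB in layer 6 was -0.063 with no block, -0.032 with a random block, -0.10 under quantile normalization and -0.12 without the low-correlation arrays, and -0.12 to 0.41 without 1 animal. The causes were not tested. The covariate on hybridisation levels and the omission of layers 4 and 6 or of low-correlation arrays were chosen after seeing the data, and background correction could not be varied on processed values.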
